A study of Homo sapiens with 12 samples.

Results

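The genes described here are 10 immediate early transcription factor genes, the FOS family (FOS, FOSB, FOSL1 and FOSL2), the JUN family (JUN, JUNB and JUND), their partner ATF3, and the zinc finger genes EGR1 and EGR3. They were taken by symbol from the 40591 named lines of the deposited count table, and each of the 10 symbols was found once. The members were selected on their CPM (read counts scaled to a common total) in the 4 groups compared here, which were already known, so their values are given as a description, with no test. Of the 10 genes, 9 passed the filter on low counts that left 15179 genes, and EGR3 did not.

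RNA was measured in 12 libraries, 3 from each of 4 groups, of ARPE-19, an established cell line from human retinal pigment epithelium (RPE). WT cells carry no open reading frame (ORF) that the labels name, and nothing is said of how they were cultured. The GFP line expresses the fluorescent protein and served as the control ORF. The GSTA4 line expresses glutathione S-transferase alpha 4, an enzyme that conjugates lipid aldehydes to glutathione. The OSK line was read as expressing the reprogramming factors POU5F1 (OCT4), SOX2 and KLF4. The 3 ORF lines are stable lines sampled after 4 days of ORF expression, the promoter that drives the ORF is not named, and neither is whether a line is 1 clone. A line and its ORF therefore cannot be told apart, and whether libraries of 1 group are separate cultures is not stated, so p-values measure only the spread between these libraries, which may be technical. The labels name no serum, growth factor or stress treatment.

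FOS and JUN family proteins pair through a leucine zipper to form AP-1, which binds short palindromic DNA sites in the promoters and enhancers of genes for proliferation, matrix turnover and stress. FOS, FOSB, JUN, ATF3 and the EGR genes are classical immediate early genes. Growth factors, serum and stress switch them on within minutes through MAP kinases acting on serum response factor (SRF), its ETS cofactors and CREB/ATF proteins, and their RNAs then decay quickly. FOSL1 and FOSL2 appear later and persist longer, and JUNB and JUND can restrain JUN. In RPE cells, AP-1 and EGR1 have been studied in oxidative stress, inflammation and the loss of epithelial features. An RNA level is a balance of synthesis and decay, and the RNA of a factor is not its protein or its activity.

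The stretch of promoter next to the start site is shown for 3 genes with different patterns below. EGR1 was highest in GSTA4, JUNB was lowest in GSTA4, and JUND varied least. The sequences are from RefSeq (GRCh38.p14), which gave a promoter for 8 of the 10 genes, and each holds the 150 bases before the start, 5′ to 3′ on the gene's own strand. Capitals mark CArG boxes, which SRF binds, the ATF/CRE octamer TGANNTCA and the CRE core TGACG, which reads CGTCA where it lies on the other strand. The windows are chr5:138465329-138465478 (plus strand) for EGR1, chr19:12791336-12791485 (plus strand) for JUNB and chr19:18281623-18281772 (minus strand) for JUND.
EGR1: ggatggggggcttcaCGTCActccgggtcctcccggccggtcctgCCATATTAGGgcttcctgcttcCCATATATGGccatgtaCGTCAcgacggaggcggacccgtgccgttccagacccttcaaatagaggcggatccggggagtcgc
JUNB: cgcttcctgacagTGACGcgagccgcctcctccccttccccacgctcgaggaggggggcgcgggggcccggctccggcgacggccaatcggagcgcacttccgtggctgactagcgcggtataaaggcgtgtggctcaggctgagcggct
JUND: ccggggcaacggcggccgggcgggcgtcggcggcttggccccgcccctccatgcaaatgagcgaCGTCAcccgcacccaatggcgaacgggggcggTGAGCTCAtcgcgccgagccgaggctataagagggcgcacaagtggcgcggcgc

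A search of 250 bases before each start, on both strands, covered 9 windows of the 8 genes, since ATF3 has more than 1 start in the table. EGR1 held CArG boxes at -105 to -96 and at -83 to -74, counted from the start, and a CArG box was found in 1.16% of 35116 promoters. EGR1 also held the EGR nonamer GCGNGGGCG at -198 to -190, a motif of EGR factors themselves, found in 8.41% of promoters. The octamer TGANNTCA was found in 3 of the 9 windows and in 10.1% of promoters. It stood at -67 to -60 in JUN, at -123 to -116 in ATF3, and at -200 to -193 and -54 to -47 in JUND. The core TGACG, which overlaps an octamer that reads TGACGTCA, was found in 7 of the 9 windows and in 21.2% of promoters. The AP-1 heptamer TGANTCA was in 0 of the 9 windows and in 6.57% of promoters, which says only that these letters are not in these windows. Such a match is a run of letters and was not tested as a binding site.

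Total counts ran from 12630675 to 17045454 a library, and the floor of 3 reads, the upper limit for a count of 0, was 0.177 to 0.228 CPM. GSTA4 RNA was at 415.8 CPM in the GSTA4 line and at 8.79 in GFP, and POU5F1, SOX2 and KLF4 were at 779.1, 628.1 and 927.8 CPM in OSK, which matches the labels. GFP replicate 1 had the fewest reads and reads on 27349 genes, against 19488 to 22073 in the other libraries. WT replicate 1 differed most from the other libraries of its group. The chi-square of counts over its degrees of freedom was 15.0 and 17.5 against WT replicates 2 and 3, and 2.54 between those. RPE markers were present in every group, with MITF at 145.9 to 249.8 CPM and OTX2 at 130.8 to 192.3 as group means, while RPE65, TTR and DCT, defining genes of mature RPE, were near 0 (RPE65 at 0.495 CPM at most). Summed over 18 genes, the RPE markers were at 3242 to 3501 CPM in WT, 2935 to 3422 in GFP, 2296 to 2378 in GSTA4 and 2203 to 2276 in OSK. Most of the WT sum came from KRT8, SLC16A3 and KRT18, with WT means of 1247, 682.3 and 432.3 CPM. None of these is specific to RPE. RLBP1, LRAT, BEST1 and MERTK, also on the list, had WT means of 1.46, 1.05, 2.96 and 3.48 CPM. The sum therefore hides genes that were higher in GFP, such as TRPM1 (14.1 CPM in WT, 80.2 in GFP) and TYR (21.2 and 65.96). The 10 fibroblast markers summed to 856.6 to 933.7 CPM in WT and 837.7 to 950.02 in GFP. They summed to 562.2 to 601.5 CPM in GSTA4 and 379.1 to 443.3 in OSK, and LUM was at 0 in every library. PDGFRB made up most of each sum, with means of 651.2 CPM in WT and 539.4 in GSTA4. From GFP to GSTA4, COL1A1 fell from 82.6 to 4.53 CPM and TAGLN from 126.2 to 10.8, while ACTA2 rose from 17.8 to 23.9. The 6 endothelial markers summed to 58.7 to 94.5 CPM in the control groups, 36.5 to 38.7 in GSTA4 and 23.7 to 26.6 in OSK, nearly all of it KDR. The 6 blood cell markers summed to at most 1.597 CPM, and the 6 neural retina markers to 70.8 to 114.6 CPM, nearly all RBPMS. The 11 heat shock genes, taken as signs of handling stress, summed to between 2551 and 2684 CPM in WT, between 2423 and 2642 in GFP, between 2749 and 2797 in GSTA4 and between 2609 and 2656 in OSK. By edgeR (adjusted p under 0.05), 2 RPE markers rose and 10 fell of 15 tested in GSTA4 against GFP, and 1 rose and 13 fell in OSK against GFP. Against WT, 9 rose and 2 fell in GFP, 4 rose and 8 fell in GSTA4, and 2 rose and 6 fell in OSK. Of 6 fibroblast markers tested, 1 rose and 4 fell in GSTA4 and 1 rose and 5 fell in OSK, each against GFP. Of the 11 heat shock genes 3 rose in GSTA4 and 3 rose and 1 fell in OSK, also against GFP. Of all genes tested, 29.2% were past the threshold in GSTA4 against GFP, 45.9% in OSK against GFP and 22.2% in GFP against WT. Against WT, 38.6% were in GSTA4 and 45.4% in OSK. The part that any of these differences has in the results below was not tested, and bulk RNA cannot separate fewer cells of a kind from less RNA per cell.

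Among the FOS family, FOSL2 dominated the RNA and set the OSK line apart, FOS was also highest in OSK, and FOSL1 was high in the GSTA4 line instead. FOSL2 encodes FRA-2, a FOS relative without the strong activation domain of FOS, and lies at chr2:28392448-28417312 (plus strand, GRCh38, GENCODE 29). It was at 259.8, 207.6 and 218.8 CPM in WT replicates 1 to 3, 196.1, 200.6 and 225.5 in GFP, 162.3, 168.6 and 168.7 in GSTA4, and 664.7, 660.4 and 631.5 in OSK. Every OSK library was far above the other 9, the GSTA4 libraries were the lowest, and WT and GFP overlapped. Against GFP, the fitted log2 fold change was 1.65 (SE 0.0749) in OSK and -0.32 (SE 0.0746) in GSTA4. An antisense gene, FLJ31356, overlaps FOSL2 but had only 4 to 15 reads a library.

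FOS, the founding member of the family at chr14:75278774-75282230 (plus strand), was scarce in all groups. Its levels were 4.17, 3.67 and 2.36 CPM in WT, 4.49, 3.37 and 2.31 in GFP, 7.05, 5.55 and 6.19 in GSTA4, and 16.1, 18.5 and 18.4 in OSK. The 3 OSK libraries were the highest, the 3 GSTA4 libraries lay between them and the controls, and WT and GFP overlapped. On the log2 scale FOS differed from GFP by 2.39 (SE 0.208) in OSK and by 0.90 (SE 0.224) in GSTA4, and OSK differed from GSTA4 by 1.49 (SE 0.191). The GSTA4 value ran from 0.67 without GFP replicate 3 to 1.15 without GFP replicate 1.

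FOSL1, at chr11:65892049-65900573 (minus strand), encodes FRA-1, an AP-1 subunit that is itself induced by sustained ERK signalling and by AP-1. It was at 2.80, 3.74 and 3.48 CPM in WT, 2.51, 2.72 and 3.40 in GFP, 14.7, 14.6 and 13.0 in GSTA4, and 4.70, 4.18 and 3.03 in OSK. All 3 GSTA4 libraries stood above the other 9, which overlapped between groups. The log2 fold change was 2.28 in GSTA4 against GFP (SE 0.193) and 0.46 in OSK against GFP (SE 0.213). FOSB, the fourth FOS gene, at chr19:45467995-45475179 (plus strand), had 6 to 24 reads a library and 0.380 to 1.82 CPM. Its libraries overlapped between all groups. The whole of FOSB lies within the span of ERCC1 on the opposite strand, which had 559 to 948 reads a library. Whether their exons overlap was not examined and the strand setting of the counting is not given, so reads of the pair may be mixed.

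JUN and JUNB were arranged in opposite order over the ORF lines. JUN, whose protein is the main transactivating partner in AP-1, is an intronless gene at chr1:58780788-58784327 (minus strand). It was at 124.4, 147.9 and 152.1 CPM in WT, 127.2, 148.8 and 157.8 in GFP, 247.6, 244.5 and 245.96 in GSTA4, and 50.9, 53.7 and 55.4 in OSK. GSTA4 was the highest group and OSK the lowest, with no library of either within the range of the controls, and WT and GFP overlapped. The log2 fold change against GFP was 0.77 in GSTA4 (SE 0.0772) and -1.44 in OSK (SE 0.0821). It was -2.21 in OSK against GSTA4 (SE 0.0824).

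JUNB, a weaker activator that can compete with JUN for partners and sites, is an intronless gene at chr19:12791496-12793315 (plus strand). It was at 201.1, 222.4 and 222.7 CPM in WT, 170.2, 189.6 and 203.1 in GFP, 45.2, 41.3 and 41.5 in GSTA4, and 279.3, 252.6 and 260.4 in OSK. Here GSTA4 was far below the other 9 libraries and OSK was above them, again with WT and GFP overlapping. The log2 fold change against GFP was -2.14 in GSTA4 (SE 0.0748) and 0.49 in OSK (SE 0.0682), and it was 2.63 in OSK against GSTA4 (SE 0.0752). JUNB lies wholly within the span of HOOK2 on the opposite strand. Overlap of their exons was not examined either, so reads of this pair may be mixed, which may bear on each JUNB value here. HOOK2 was at 35.7 CPM ± 5.11 in WT, 31.7 ± 5.50 in GSTA4, 27.6 ± 0.991 in GFP and 18.1 ± 1.37 in OSK (SD, n = 3). It had 384 to 599 reads a library in GSTA4, where JUNB had 550 to 711.

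The ratio of JUNB to JUN CPM within a library was 1.62, 1.504 and 1.46 in WT, 1.34, 1.27 and 1.29 in GFP, 0.182, 0.169 and 0.169 in GSTA4, and 5.49, 4.71 and 4.70 in OSK. This ratio does not depend on the scaling between libraries, and no group shared its range with another. JUND, an intronless gene at chr19:18279760-18281622 (minus strand) whose RNA is known as the steady member of the family, was at 111.4, 106.5 and 111.98 CPM in WT and 93.7, 96.3 and 98.5 in GFP. It was at 112.02, 95.1 and 90.5 CPM in GSTA4 and 99.5, 101.3 and 106.2 in OSK. The highest JUND group mean was 1.14 times the lowest, the narrowest range of the 9 genes. Its log2 fold change of 0.09 in OSK against GFP (SE 0.0701) fell to 0.02 when libraries were scaled by their size alone.

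**Figure D1:**
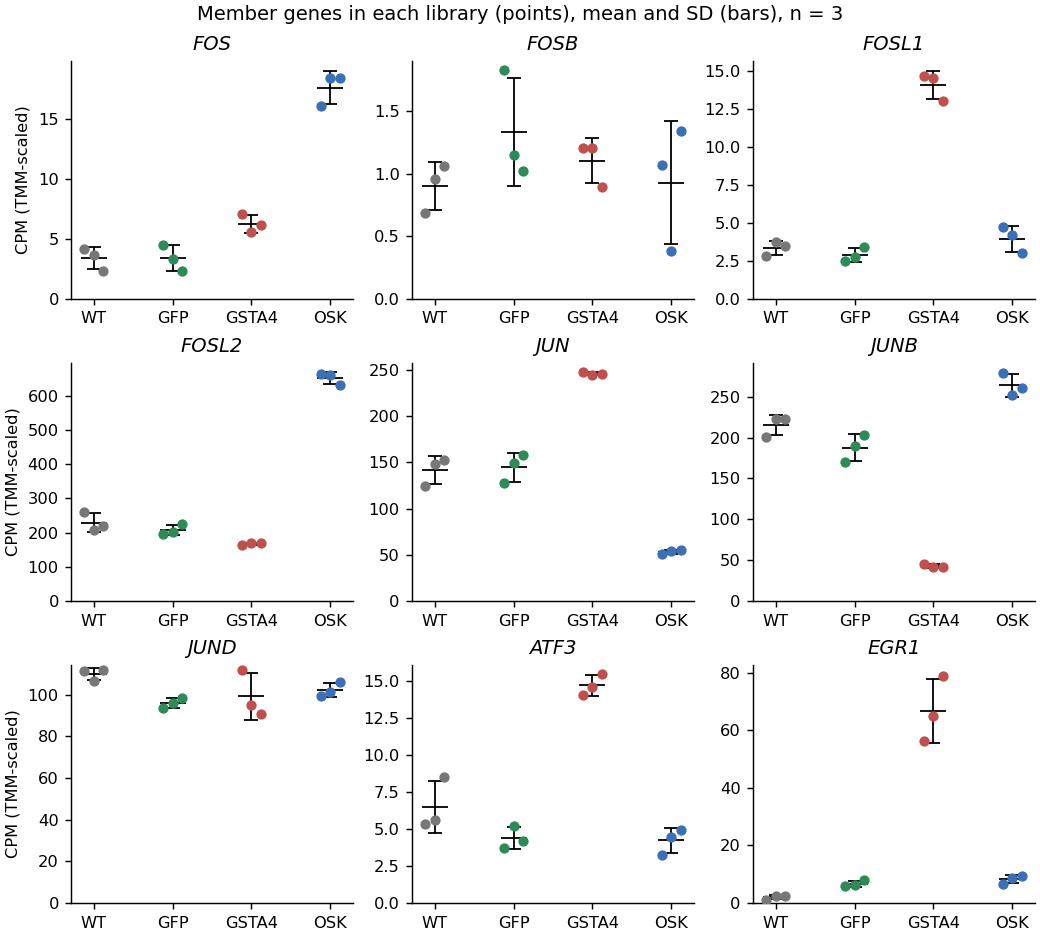
TMM-scaled CPM (linear axis from 0, one scale per panel) of the 9 genes that passed the filter, with a point for each library of WT, GFP, GSTA4 and OSK and bars for the mean and SD (n = 3). FOS and FOSL2 peak in OSK, FOSL1, JUN, ATF3 and EGR1 peak in GSTA4, and JUNB is lowest in GSTA4 at 42.6 CPM.

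ATF3, a stress-induced ATF family protein that pairs with JUN proteins and often represses, is at chr1:212565334-212620777 (plus strand). It was at 5.35, 5.58 and 8.56 CPM in WT, 3.73, 5.23 and 4.21 in GFP, 14.04, 14.6 and 15.5 in GSTA4, and 3.27, 4.49 and 4.92 in OSK. The GSTA4 libraries were the highest, WT came next, and GFP and OSK overlapped. The log2 fold change was 1.74 in GSTA4 against GFP (SE 0.195) and -0.05 in OSK against GFP (SE 0.217). In GFP against WT it was -0.57 (SE 0.205), and -0.32 without WT replicate 3, the highest WT library.

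EGR1, a zinc finger factor that turns brief growth factor and stress signals into changes of GC-rich promoters, had the widest range of all. It lies at chr5:138465490-138469315 (plus strand), just after the promoter shown above. Its levels were 1.18, 2.50 and 2.54 CPM in WT, 5.85, 6.31 and 7.81 in GFP, 56.4, 64.997 and 78.7 in GSTA4, and 6.69, 8.55 and 9.36 in OSK. Behind these stood 19 to 43 reads a library in WT, 77 to 115 in GFP, 866 to 1144 in GSTA4 and 94 to 135 in OSK. Every GSTA4 library was above the other 9, every WT library was below, and GFP and OSK overlapped. The mean in GSTA4, 66.7 CPM ± 11.3 (SD, n = 3), was 10.02 times that in GFP (6.66 ± 1.02) and 32.2 times that in WT (2.07 ± 0.771). The log2 fold change was 3.32 in GSTA4 against GFP (SE 0.164), 0.30 in OSK against GFP (SE 0.190) and 1.69 in GFP against WT (SE 0.237). EGR1 was thus the gene of the set that differed most between the control groups, at 3.21 times the WT mean in GFP. Without WT replicate 1, the lowest WT library, its log2 fold change in GFP against WT came to 1.40. EGR3, a second EGR gene that EGR1 and calcium signals can induce, had 0 reads in the 9 libraries of WT, GSTA4 and OSK and 3, 2 and 1 reads in GFP, all at or under the floor of 3 reads.

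Per length of exon, the scale on which genes can be compared, the makeup of the RNA of both families shifted between lines. The FOS family summed to 98.9 ± 2.67 CPM per kilobase in OSK, 34.9 ± 3.72 in WT, 32.9 ± 0.338 in GSTA4 and 31.8 ± 2.09 in GFP (SD, n = 3). FOSL2 supplied 91.4% of that sum in WT, 91.1% in GFP and 92.2% in OSK, but 70.8% ± 1.71 in GSTA4. FOSL1 supplied 22.7% ± 1.33 in GSTA4 and 2.12% to 5.15% in the other groups. FOS itself supplied 2.99% to 5.89%. The family total was highest in OSK, and the GSTA4 mean lay between those of WT and GFP.

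The JUN family summed to 217.3 ± 10.6 CPM per kilobase in WT, 215.1 ± 6.50 in OSK, 195.6 ± 14.8 in GFP and 146.2 ± 7.60 in GSTA4. JUNB supplied 67.4% ± 1.67 of it in OSK, 54.4% in WT, 52.7% in GFP and 16.0% ± 0.148 in GSTA4. JUN supplied 7.01% ± 0.448, 18.4%, 20.9% and 47.6% ± 2.18 in the same order. JUND supplied 25.6% to 36.4%. On the same scale EGR1 was at 21.3 CPM per kilobase in GSTA4, near FOSL2 (23.3) and JUNB (23.4) in that line, and at 0.66 to 2.61 in the other groups. ATF3 was at 1.05 to 3.64.

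**Figure D2:**
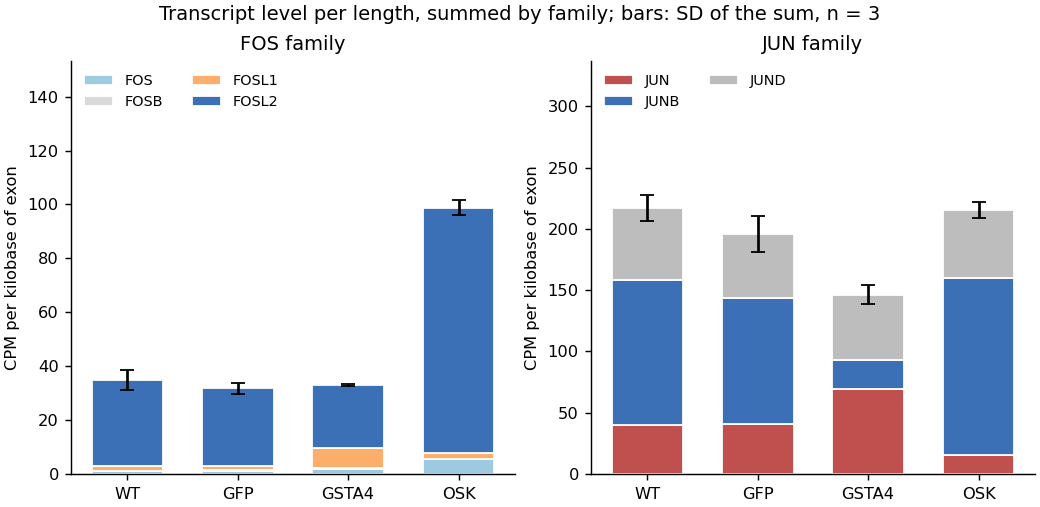
Stacked bars from 0 give the mean CPM per kilobase of exon of each FOS family gene (left) and JUN family gene (right) in the 4 groups, with error bars for the SD of the family sum over n = 3 libraries. FOSL2 fills most of the FOS family bar in each group and raises it to 98.9 in OSK, and JUN replaces JUNB as the largest JUN family share in GSTA4.

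Genes whose libraries did not overlap were counted over the 9 genes in each comparison, beside the share of all genes tested. Comparisons with GFP share the GFP libraries, so each is given on its own. In GSTA4 against GFP, FOS, FOSL1, JUN, EGR1 and ATF3 were higher with no overlap between libraries and FOSL2 and JUNB were lower, 7 of 9, where 42.3% of all genes tested did not overlap (22.4% higher, 19.9% lower). The log2 fold change was at least 1 in size for 4 of the 9 and for 7.79% of all genes, and the median log2 fold change was 0.77 over the 9 and 0.01 over all genes. In OSK against GFP, FOS, FOSL2, JUNB and JUND were higher and JUN was lower, 5 of 9, where 54.7% of all genes did not overlap (27.5% higher, 27.2% lower). Its size was at least 1 for 3 of the 9 and for 13.4% of all genes, with medians of 0.30 and -0.02. In GFP against WT, EGR1 was higher and JUND and ATF3 were lower, 3 of 9, where 34.6% of all genes did not overlap (16.9% higher, 17.7% lower), and the medians were -0.14 and 0.01. In OSK against GSTA4, FOS, FOSL2 and JUNB were higher and FOSL1, JUN, EGR1 and ATF3 were lower, 7 of 9, where 58% of all genes did not overlap (28.8% higher, 29.2% lower). Each of these 7 differed by at least 1 on the log2 scale, as did 14.8% of all genes, and the medians were -0.26 and -0.01. Since the genes were chosen with these values known, nothing is read from the counts.

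With WT in place of GFP as the control, 7 of 9 genes did not overlap in GSTA4, where 49% of all genes did not (25.6% higher, 23.5% lower), and the same 5 genes were higher and 2 lower. In OSK against WT, FOS, FOSL2, JUNB and EGR1 were higher and JUN, JUND and ATF3 were lower, 7 of 9, where 53.5% of all genes did not overlap (26.9% higher, 26.6% lower). EGR1 differed most by choice of control. Its log2 fold change in OSK was 1.99 against WT (SE 0.228), 1.70 without WT replicate 1, and 0.30 against GFP. ATF3 in OSK was -0.62 against WT (SE 0.205), -0.36 without WT replicate 3, and -0.05 against GFP. JUN and FOSL2 in OSK kept values of -1.41 and 1.51 against WT.

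**Figure D3:**
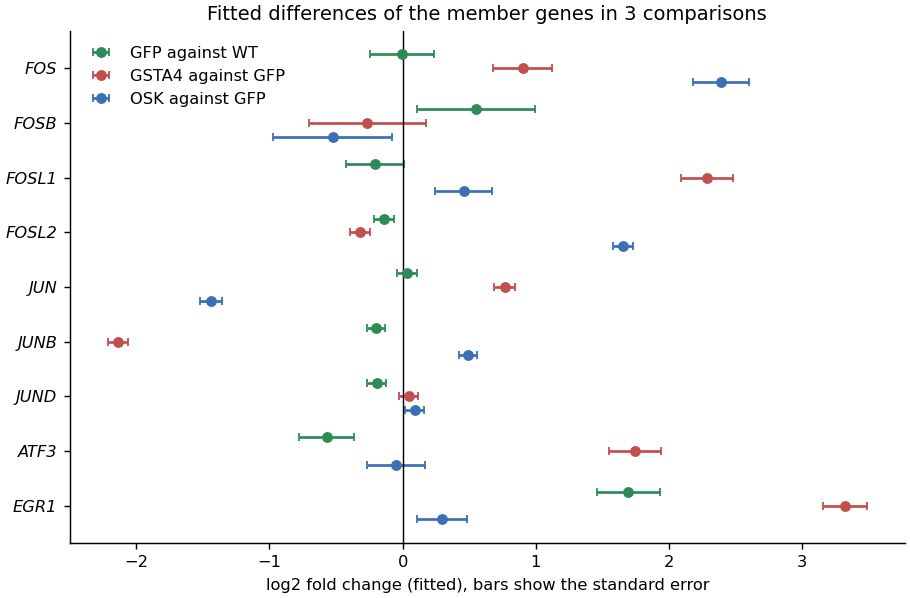
Fitted log2 fold changes (x axis) of the 9 genes in GFP against WT, GSTA4 against GFP and OSK against GFP, with bars for the standard error. GSTA4 and OSK points lie on opposite sides of 0 for FOSL2, JUN and JUNB. They also do for ATF3, whose OSK point of -0.05 is within its standard error of 0. EGR1 is at 3.32 in GSTA4 and 1.69 in GFP against WT.

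Genes whose log2 CPM ran most like that of the 3 most variable members were taken from 9600 candidates as a description over 12 libraries, which share 4 groups, so that a likeness can come from the 4 group means alone. For EGR1 they were the mitochondrial genes MT-RNR2 (Pearson r 0.987) and MT-ND1 (0.979) and the laminin receptor gene BCAM (0.976). MT-RNR2 was at 7917 CPM in GSTA4, 6258 in OSK, 6087 in GFP and 5292 in WT, so its order matched that of EGR1 over a far narrower range. The share of reads on mitochondrial genes was 5.99% to 6.06% in WT, 6.05% to 6.54% in GFP, 7.55% to 7.82% in GSTA4 and 6.81% to 6.89% in OSK, and its part in the EGR1 result was not tested. For JUNB the closest were FBLN2 (0.992), PIM1 (0.992) and RARA (0.987), each lowest in GSTA4. FBLN2, a matrix fibulin gene, was at 7.69 CPM in GSTA4 and 41.2 in GFP, and PIM1, a kinase gene, at 11.1 and 34.7. For FOS they were FLG (0.976), CPNE8 (0.972) and AKAP13 (0.971), each highest in OSK, with FLG, an epidermal barrier gene, at 80.9 CPM in OSK and 2.10 in GFP.

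The other genes of the pathway were taken from 7 lists that hold none of the 10 genes, 207 genes in all, of which 175 were tested. The lists were chosen with earlier results of these data known. Their counts are therefore a description, and nothing is read from their shares. In GSTA4 against GFP 90 of the 175 were past the threshold of edgeR's quasi-likelihood test (adjusted p under 0.05), 45 higher and 45 lower, and the share of all genes past it was 29.2% (14.7% higher, 14.6% lower). In OSK against GFP 119 were, 67 higher and 52 lower, against 45.9% of all genes (23.1% higher, 22.8% lower). In GFP against WT 66 were, 17 higher and 49 lower, against 22.2% (11% and 11.2%), and in OSK against GSTA4 126 were, 75 higher and 51 lower, against 47.8% (24.1% and 23.8%). The median log2 fold change of the listed genes was 0.03, 0.07, -0.10 and 0.10 in that order. Scaling by library size alone changed the split of all calls in OSK against GFP from 3508 higher and 3454 lower to 2761 and 4180, and that of the listed genes to 61 and 56. In OSK against GSTA4 it changed the split of all calls from 3655 and 3607 to 3156 and 4277, and that of the listed genes from 75 and 51 to 67 and 57. With WT as the control, 106 listed genes passed in GSTA4, 41 higher and 65 lower, against 38.6% of all genes (19.7% and 19%), and 108 passed in OSK, 54 in each direction, against 45.4% (22.7% in each). Each listed gene named in the paragraphs that follow had no overlap between libraries in the comparison where it is named, and its call there was kept under the alternatives run.

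Upstream of the AP-1 and EGR genes, 13 of 23 growth factor ligand and receptor genes passed the test in GSTA4 against GFP, 6 higher and 7 lower. ERBB4, a receptor of the EGF family, fell from 210.2 CPM ± 4.84 to 91.5 ± 5.30 (n = 3 each, edgeR adjusted p 1.01e-09), and FGF2 fell from 510.5 to 282.8 CPM. NRG1, a ligand of ERBB receptors, rose from 18.1 to 35.1 CPM. In OSK against GFP 16 passed, 8 in each direction. EGFR fell from 495.4 CPM ± 17.2 to 282.3 ± 9.62 (edgeR adjusted p 2.39e-09), PDGFRB fell from 659.96 to 342.7, and FGF7 had 287 reads in the OSK libraries together and 2 in the GFP libraries, a ratio of 136.2 with an exact 95% counting interval of 37.4 to 1130.02. In GFP against WT 6 passed, 5 of them higher, among them EGFR (log2 fold change 0.40) and MET, the HGF receptor gene (0.31).

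Among 35 genes of MAP kinases and SRF cofactors, 12 (34.3%) passed in GSTA4 against GFP, 6 in each direction. In OSK against GFP 20 (57.1%) passed, 11 higher and 9 lower, and in GFP against WT 8 (22.9%), 1 higher and 7 lower. Of all genes, 29.2%, 45.9% and 22.2% passed in that order. Against WT, 3 were higher and 12 lower in GSTA4, and 9 were higher and 11 lower in OSK. The 12 calls in GSTA4 against GFP came to 6 without GFP replicate 1 and to 7 without GSTA4 replicate 1 or GSTA4 replicate 2. The 8 calls in GFP against WT came to 5 without WT replicate 1. RPS6KA2, a kinase of the RSK family downstream of ERK, was called in both ORF lines, at a log2 fold change of -0.94 in GSTA4 and 0.70 in OSK. MAPK12, the p38 gamma gene, rose by 0.82 in GSTA4, and RPS6KA4, which encodes the nuclear kinase MSK2, rose by 1.18 in OSK. ELK3, an ETS cofactor of SRF, fell by 0.57 in GFP against WT (edgeR adjusted p 8.37e-06).

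Of 21 feedback inhibitors of MAP kinase signalling, 10 rose and 4 fell in GSTA4 against GFP, 10 rose and 4 fell in OSK against GFP, and 1 rose and 9 fell in GFP against WT. The 14 calls in GSTA4 came to 9 without GSTA4 replicate 1. Against WT, 8 rose and 5 fell in GSTA4, and 7 rose and 7 fell in OSK. DUSP4, a nuclear ERK phosphatase, rose from 46.6 CPM ± 6.91 to 106.4 ± 5.22 in GSTA4 (edgeR adjusted p 4.85e-09), and DUSP10, a phosphatase of JNK and p38, fell from 40.8 to 17.6. In OSK, DUSP5 rose from 7.53 to 23.1 CPM, SPRY2 rose from 53.2 to 87.7, and DUSP3 fell from 200.2 to 114.9. DUSP1, itself an immediate early gene, fell from 463.1 CPM ± 110.9 in WT to 257.7 ± 19.4 in GFP (edgeR adjusted p 1.85e-05).

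Of 36 other immediate early genes tested, 7 rose and 14 fell in GSTA4 against GFP, and 13 rose and 15 fell in OSK against GFP. In GFP against WT, the comparison in which EGR1 was higher, 2 rose and 16 fell. Against WT, 4 rose and 21 fell in GSTA4, and 9 rose and 14 fell in OSK. In GSTA4 against GFP, CCN2, a matricellular growth factor gene, fell from 1234 CPM ± 32.6 to 437.3 ± 33.8 (edgeR adjusted p 1.11e-11). GADD45B fell from 131.9 to 63.3 and IER3 from 105.1 to 47.9. In OSK, where FOS was highest, the orphan nuclear receptor gene NR4A1 rose from 3.94 CPM ± 0.479 to 37.1 ± 3.93 (edgeR adjusted p 5.54e-14). NR4A3 rose from 4, 3 and 5 reads in the GFP libraries to 149, 146 and 147 in OSK. GADD45B fell to 60.1 CPM in OSK and was at 254.7 in WT.

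Among 26 other bZIP genes, which encode possible partners and competitors of AP-1, 4 rose and 4 fell in GSTA4 against GFP (30.8% called). In OSK against GFP 13 rose and 4 fell (65.4%), and in GFP against WT 3 rose and 8 fell (42.3%). Of all genes, 29.2%, 45.9% and 22.2% were called in that order. Against WT, 6 rose and 10 fell in GSTA4. In OSK against WT 7 rose and 4 fell, 42.3%, where 45.4% of all genes were called. CREB5 rose in GSTA4 against GFP from 36.8 to 80.1 CPM (log2 fold change 1.12, SE 0.136). MAFF, a small MAF gene, rose in OSK from 7.11 to 37.7 CPM (2.40, SE 0.130), and MAF fell from 79.6 to 38.4.

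Of 20 AP-1 target genes, 8 rose and 5 fell in each of GSTA4 and OSK against GFP, and 3 rose and 6 fell in GFP against WT. In GSTA4, the matrix protease gene MMP2 fell from 61.6 CPM ± 3.16 to 5.15 ± 1.46 (edgeR adjusted p 3.50e-12), the protease inhibitor gene TIMP1 rose from 90.6 to 166.7, and PHLDA1 rose from 10.4 to 29.05. In OSK, the hyaluronan receptor gene CD44 rose from 114.7 CPM ± 8.61 to 377.04 ± 29.02 (edgeR adjusted p 8.56e-14), S100A10 rose from 50.6 to 156.6 and PLAUR, the urokinase receptor gene, rose by 2.42 on the log2 scale. Of 18 genes of EGR corepressors and EGR targets, 5 rose and 7 fell in GSTA4, the line with the most EGR1 RNA, 5 rose and 9 fell in OSK, and 2 rose and 4 fell in GFP against WT, where the 6 calls came to 3 without GFP replicate 2. In GSTA4, VEGFA fell from 208.2 to 97.1 CPM and TXNIP from 105.7 to 53.9. In OSK, F3, which encodes tissue factor, rose from 272.7 to 1079 CPM, the heparanase gene HPSE from 8.12 to 101.98, and NAB1, a corepressor of EGR1, from 28.8 to 52.3.

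**Figure D4:**
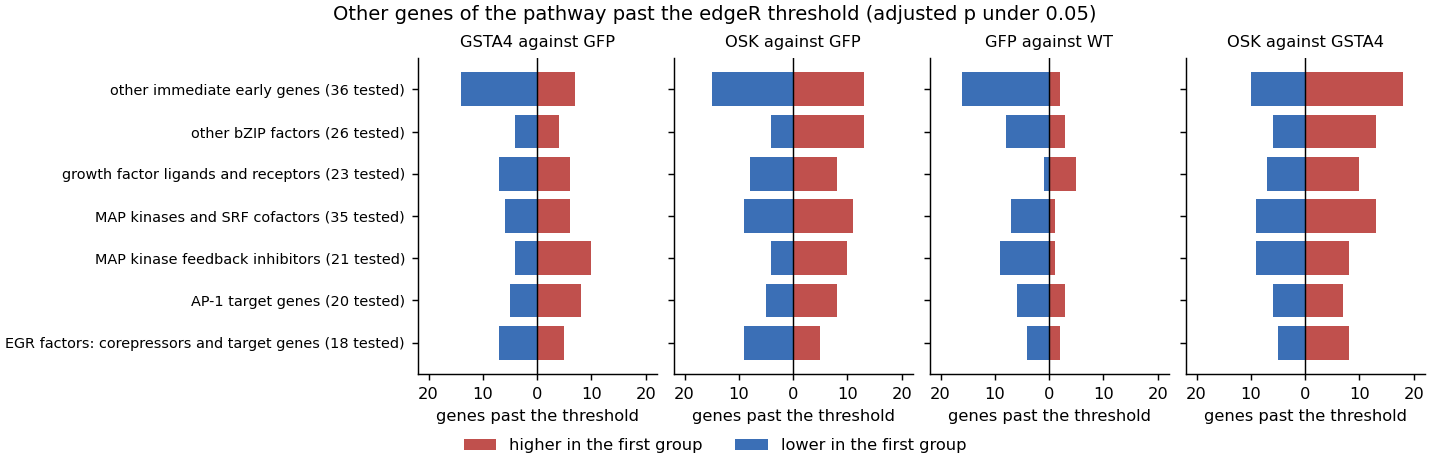
Number of genes of each pathway list past the edgeR threshold, with bars to the right of 0 for genes higher and bars to the left for genes lower in the first group of each of 4 comparisons. In GFP against WT most calls point left, 49 of 66 over all lists, while 10 of 21 feedback inhibitors are higher in each ORF line against GFP.

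In OSK against GSTA4, 7 of the 9 AP-1 and EGR1 genes differed by at least 1 on the log2 scale, as did 14.8% of all genes. Of the 175 listed genes 126 (72%) passed the test, and 47.8% of all genes did. Both the 9 genes and the lists were chosen with earlier results of these data known, so nothing is read from these shares. Higher and lower calls came to 18 and 10 of 36 other immediate early genes, 13 and 6 of 26 other bZIP genes, 10 and 7 of 23 ligands and receptors, and 13 and 9 of 35 MAP kinases and SRF cofactors. They came to 8 and 9 of 21 feedback inhibitors, 7 and 6 of 20 AP-1 targets, and 8 and 5 of 18 EGR corepressors and targets. RPS6KA2 was higher in OSK by 1.64 on the log2 scale (edgeR adjusted p 1.67e-13) and MAPK12 was lower, at -1.52. EGFR was lower as well, at -1.18, and the EGFR inhibitor gene ERRFI1 was higher by 1.47.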

How the data were processed

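RNA-seq read counts per gene were deposited by the authors as whole numbers; per the submitters' processing notes, STAR 2.7.1a and featureCounts 1.6.2 were used, with human (GRCh38, hg38) and mouse (GRCm38, mm10) builds named without a role. Annotation release and strand setting are not given in the sources used here. Lines without a symbol (0.485% to 0.822% of reads) were left out. All 12 libraries entered 1 fit with a mean per group in edgeR 4.0.16 (limma 3.58.1, R 4.3.3): TMM scaling, filterByExpr with groups, quasi-likelihood test, two-sided, Benjamini-Hochberg over 15179 genes per comparison, threshold 0.05, 8 residual degrees of freedom, common biological coefficient of variation 7.91%, prior count 0.125. An SE is the log2 fold change over the root of F. CPM were computed on TMM-scaled totals of the tested genes. The floor is 3 reads a library and, like the interval for FGF7, covers counting error only. Lengths and positions are exon unions of GENCODE 29 (GRCh38). The genes described and the 7 pathway and 6 marker lists were chosen with earlier results of these data known. Named from each list were up to 3 genes a comparison with the lowest adjusted p and a mean of at least 1 CPM, some of which are printed, and 3 like genes for each of 3 members (mean of at least 10 CPM, log2 CPM with prior count 2). Alternatives were DESeq2 1.42.0, a replicate block, scaling by RLE or by library size only, no low-count filter or one at a mean of 1 CPM, a fit on the 6 libraries compared, and leaving out each library. The test was checked on simulated counts. Over the 4 comparisons it recovered 42.6% to 60.4% of genes changed by 0.5 on the log2 scale and 90.7% to 96.9% of those changed by 2. It made 6 to 13 false calls a comparison. Far fewer genes were changed in the simulation than were called here, so these shares do not measure recovery in the real comparisons. A gene that was not called may still differ.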

Additional observations from a re-analysis of the deposited data

Results flagged for a closer look

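Genes whose GSTA4 and OSK libraries lay on opposite sides of the GFP libraries are given here by their log2 fold change against GFP. Among the AP-1 genes these were FOSL2 at -0.32 in GSTA4 and 1.65 in OSK, JUN at 0.77 and -1.44, and JUNB at -2.14 and 0.49. For these genes the difference was not tested, since they were chosen with their values known, and both comparisons share the GFP libraries. Among the listed genes, in the order GSTA4 and OSK, they were ATF5 at 0.65 and -0.34, NRG1 at 0.95 and -0.14, EGFR at 0.37 and -0.81, RPS6KA2 at -0.94 and 0.70, MAPK12 at 0.82 and -0.70, MAP2K6 at -0.82 and 1.77, DUSP3 at 0.16 and -0.80, and F3 at -0.22 and 1.98. A place on the other side of GFP is not a call: the highest OSK library of NRG1, at 17.789 CPM, was just under its lowest GFP library, at 17.798. In the direct comparison of OSK with GSTA4 all 8 listed genes were past the threshold of edgeR's test, with adjusted p-values from 1.38e-17 for F3 (log2 fold change 2.21, SE 0.0556) to 1.43e-07 for NRG1 (-1.10, SE 0.119), and in each the 3 OSK libraries lay on 1 side of the 3 GSTA4 libraries.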

How the results depend on the processing

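Counts of calls stayed within 1.5 times their value under every alternative other than leaving out a library. With each library left out in turn, MAP kinase and SRF cofactor calls ran from 6 to 15 in GSTA4 against GFP and from 5 to 9 in GFP against WT, feedback inhibitor calls from 9 to 14 in GSTA4 against GFP, and EGR corepressor and target calls from 3 to 7 in GFP against WT. A library left out leaves fewer samples for the test. The fitted sign of FOSB, JUND and ATF3, and of FOS and JUN in GFP against WT, changed in comparisons where their libraries overlap, and FOSB, with 6 to 24 reads a library, is limited by depth. Deviations of samples with the same replicate number correlated at -0.0193 to 0.153, so the numbers were not taken to pair the samples. With the replicate block, 4734 genes (94 listed) were called in GSTA4 against GFP and 7476 (127) in OSK against GSTA4. In OSK against GFP 7269 (124) were called, and in GFP against WT 3779 (75). Each count was higher than in the main fit, where 4439, 7262, 6962 and 3369 genes were called in that order.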
